A study of Mus musculus with 9 samples.

Results

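The interleukin-1 family genes described here are 4 agonist ligands (Il1a, Il1b, Il33 and Il18), 1 antagonist ligand (Il1rn), 3 receptor chains (Il1r1, Il1rap and Il1rl1) and 1 decoy receptor (Il1r2). They were taken by symbol from the count table, and all 9 were found among its 54532 genes. The hearts came from wild-type C57BL/6J mice, all male and 8 to 10 weeks old, and RNA of the tissue was sequenced, with 3 libraries in each of 3 groups. Sham mice had the chest opened and a thread laid under the left anterior descending coronary artery without tying it. MIRI (myocardial ischemia/reperfusion injury) mice had this artery tied for 30 min, followed by 24 h of reperfusion, and received saline. GXNI mice had the same ischemia and reperfusion and received Guanxinning injection, a herbal preparation, at 9 mL/kg. According to the paper all groups, which include sham, received drug or saline by tail vein, timed early in ischemia. The labels name the cell type as cardiomyocytes, but markers of endothelial cells, fibroblasts, macrophages and neutrophils were counted in every library, so the values are those of whole heart tissue.

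Interleukin-1 alpha and interleukin-1 beta bind the receptor encoded by Il1r1, which then recruits the accessory chain encoded by Il1rap and signals through MYD88 and IRAK proteins to NF-kappa-B. The antagonist encoded by Il1rn occupies the same receptor without recruiting the accessory chain, and Il1r2 encodes a receptor that binds ligand but lacks the signalling domain. Interleukin-33, a nuclear protein set free from damaged cells, acts through ST2 (Il1rl1) with the same accessory chain, and interleukin-18 acts through a receptor pair of its own. In the injured heart, interleukin-1 signalling is known for its part in the early inflammatory response, and soluble ST2 is measured in blood as a marker of cardiac stress.

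Library totals were 17119454 to 22811295 counts, at which 3 counts correspond to 0.132 to 0.175 CPM (counts scaled to the library total after TMM normalization). Libraries of one label did not all lie together. On the first principal component of 15207 genes, which held 64.7% of the variance, sham libraries lay between -59.8 and -52.3, MIRI libraries 1, 2 and 3 at 61.6, -44.4 and 83.2, and GXNI libraries 1, 2 and 3 at -43.5, 18.7 and 94.4. The summed level of 14 neutrophil markers, of which S100a9 was the most abundant, was 34.2 to 65.5 CPM in sham, 756, 31.0 and 670 CPM in MIRI libraries 1 to 3, and 57.6, 238 and 716 CPM in GXNI libraries 1 to 3. MIRI 2 and GXNI 1 therefore lay near the sham libraries, and GXNI 3 near MIRI 1 and MIRI 3. The most similar library of each of the 6 hearts after ischemia carried another label. Groups follow the deposited labels throughout. Whether the labels of MIRI 2 and GXNI 3 are right was not tested, and the comparisons of MIRI or GXNI hearts hold only under those labels. Each result is given with all libraries. For part of the results, values with single libraries left out are added, and for the members in GXNI against MIRI these are ranges.

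Compared with the sham group, the 6 hearts after ischemia and reperfusion (MIRI and GXNI) showed the largest mean differences for Il1rn, Il1r2, Il1a and Il1b, and a difference near 0 for Il1rl1. Genes whose fold change reached 1.5 with an unadjusted p no higher than 0.01 in edgeR's quasi-likelihood test over all genes are described as called. With all libraries, 0 of the 9 members were called, where 8.38% of all 15207 genes tested were, 5.52% of them in the upward direction. At an unadjusted p under 0.05 there were 7 members, against 29.5% of all genes, and DESeq2 called 4 (Il1a, Il1b, Il1rn and Il1r2), against 7.49% of the genes it tested. The median log2 fold change of the 9 members was 1.54, beside 0.01 over all genes, and 8 of the 9 were above 0, as were 50.5% of all genes. For 0 members did all 6 hearts lie above the 3 sham hearts, a separation found upward in 8.4% of all genes. Without MIRI 2, 6 members were called in edgeR, all higher (Il1a, Il1b, Il33, Il1rn, Il1rap and Il1r2), against 9.67% of genes. Without GXNI 1 there were 4 (Il1a, Il1b, Il1rn and Il1r2), against 9.57%, and without both MIRI 2 and GXNI 3 there were 4 (Il1a, Il33, Il1rn and Il1r2), against 6.6%. MIRI 2 and GXNI 1 were the lowest of the 6 hearts for Il1a, Il1b, Il1rn and Il1r2. Leaving out either therefore raises these values by itself. Fewer cells of a type and less RNA per cell cannot be told apart in these bulk samples.

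**Figure D1:**
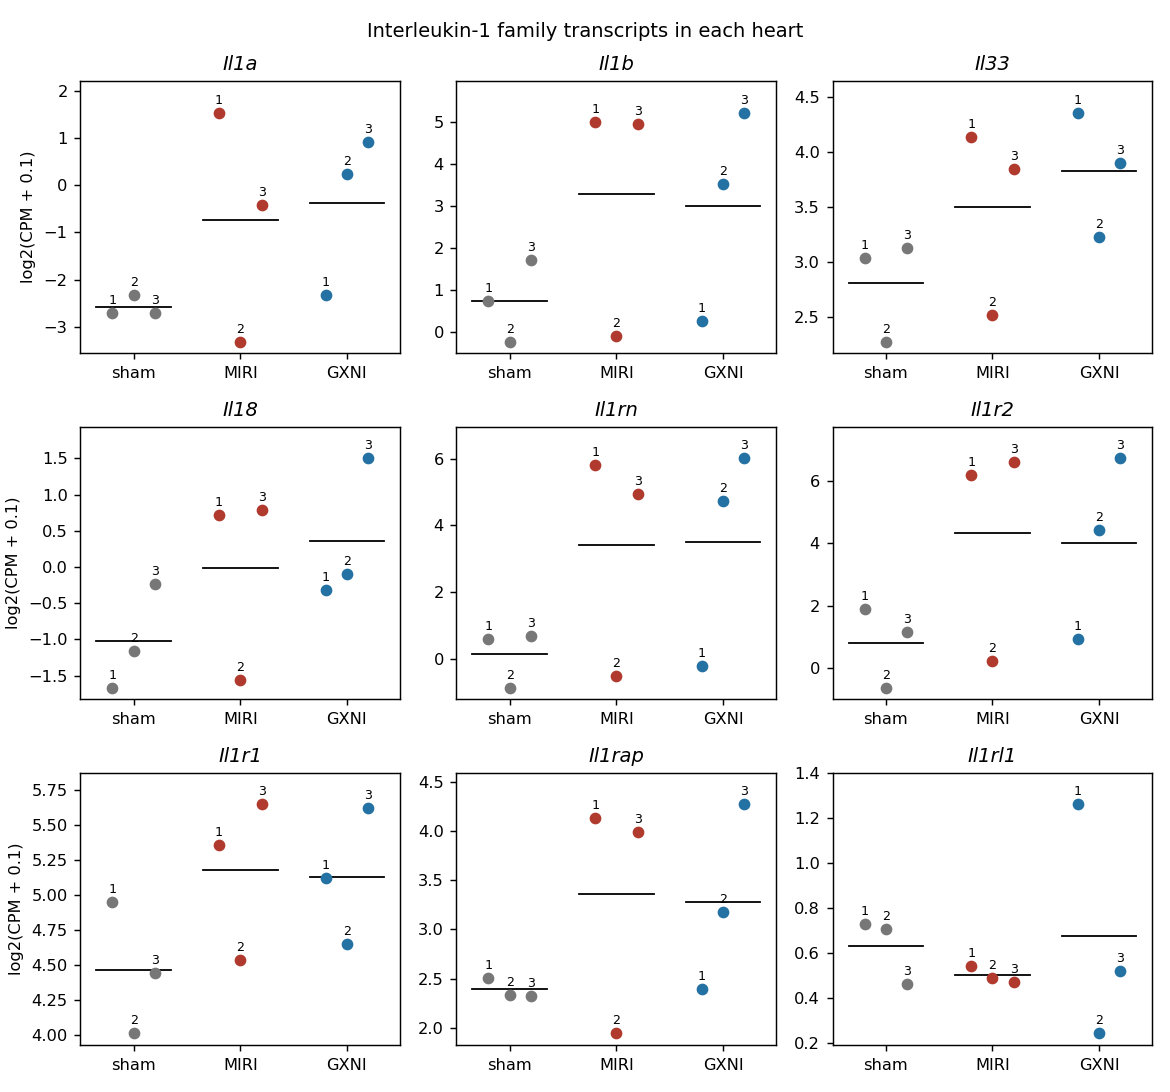
Level of each of the 9 members in every heart, as log2(CPM + 0.1) on the vertical axis (scales differ between panels), by group. Points are single libraries marked with their replicate number, and bars are group means of the plotted values. For Il1b, Il1rn and Il1r2, MIRI 1, MIRI 3, GXNI 2 and GXNI 3 stood above all 3 sham hearts, while MIRI 2 and GXNI 1 stayed within the sham range.

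Il1b encodes interleukin-1 beta, made as a precursor mainly by myeloid cells. It was counted at 1.56, 0.743 and 3.14 CPM in sham hearts 1 to 3, at 32.0, 0.831 and 30.8 CPM in MIRI hearts 1 to 3, and at 1.10, 11.4 and 37.4 CPM in GXNI hearts 1 to 3. Of the 6 hearts after ischemia, 4 were above every sham heart, and MIRI 2 and GXNI 1 were within the sham range. The log2 fold change in these 6 hearts against sham was 3.38 (SE 1.25, 95% interval 0.60 to 6.17, adjusted p = 0.121, edgeR's quasi-likelihood test), and adjusted p ranged from 0.0306 to 0.311 over the alternatives.

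Il1a encodes interleukin-1 alpha, which many cells hold and release when they die. It was the least abundant member per kilobase of exon in sham hearts, with 1, 2 and 1 counts, against 60, 0 and 15 counts in MIRI hearts 1 to 3 and 2, 22 and 31 counts in GXNI hearts 1 to 3. The count of 0 in MIRI 2 allows a level of up to 0.168 CPM. Summed over libraries, 130 counts after ischemia stood against 4 in sham hearts, a ratio of rates of 15.7 with an exact 95% counting interval of 5.99 to 58.6, which does not cover the spread between hearts. The fitted log2 fold change was 3.84 (SE 1.38, adjusted p = 0.116, edgeR's quasi-likelihood test). Low counts kept Il1a under the filter in both comparisons of 3 hearts with sham.

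Both interleukin-1 genes lie on the reverse strand of chromosome 2 (GRCm38), Il1a at 129299610 to 129309972 and Il1b at 129364570 to 129371139, their lower ends 65.0 kb apart. Each overlaps a noncoding gene on the opposite strand (Gm14023 and Il1bos), and the strand setting of the counting is not given in the sources used here, so reads of such partners cannot be told apart. Their promoters are shown because they share an element near the same place, beside a window of Il33 that holds it too and that of Il1r2, the member of widest range. RefSeq windows from 250 bases before to 50 bases after the start were searched on the sense strand for the TATA box TATAAA and on both strands for 4 other motifs, the AP-1 motif TGANTCA, the ETS/PU.1 motif GAGGAA, the C/EBP motif TTNNGNAA and the NF-kappa-B consensus. Capitals mark matches in windows of GRCm38.p6 at chr2:129309923-129310222 (Il1a, reverse strand), chr2:129371090-129371389 (Il1b, reverse strand), chr19:29945540-29945839 (Il33, window 2, forward strand) and chr1:40085843-40086142 (Il1r2, forward strand).
Il1a: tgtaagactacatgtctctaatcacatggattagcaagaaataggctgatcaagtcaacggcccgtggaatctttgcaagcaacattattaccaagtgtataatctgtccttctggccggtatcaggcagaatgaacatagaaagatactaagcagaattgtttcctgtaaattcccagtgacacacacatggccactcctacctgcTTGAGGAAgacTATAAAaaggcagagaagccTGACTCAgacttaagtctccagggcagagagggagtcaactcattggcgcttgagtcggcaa
Il1b: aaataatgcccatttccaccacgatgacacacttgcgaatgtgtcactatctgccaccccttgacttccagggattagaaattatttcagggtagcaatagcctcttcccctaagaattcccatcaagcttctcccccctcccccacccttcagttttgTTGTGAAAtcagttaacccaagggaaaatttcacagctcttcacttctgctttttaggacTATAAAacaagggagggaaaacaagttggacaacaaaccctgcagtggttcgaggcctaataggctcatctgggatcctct
Il33 window 2: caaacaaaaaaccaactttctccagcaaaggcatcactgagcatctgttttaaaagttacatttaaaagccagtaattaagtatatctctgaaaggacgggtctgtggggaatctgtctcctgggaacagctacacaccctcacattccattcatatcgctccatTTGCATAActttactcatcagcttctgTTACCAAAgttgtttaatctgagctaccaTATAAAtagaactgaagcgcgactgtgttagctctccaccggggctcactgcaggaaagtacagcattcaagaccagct
Il1r2: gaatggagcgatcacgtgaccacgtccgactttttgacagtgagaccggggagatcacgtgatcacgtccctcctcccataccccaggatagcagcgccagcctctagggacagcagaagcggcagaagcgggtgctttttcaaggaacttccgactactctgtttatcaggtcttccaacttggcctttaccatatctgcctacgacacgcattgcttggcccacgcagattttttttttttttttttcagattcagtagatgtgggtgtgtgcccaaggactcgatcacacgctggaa
TATAAA began 32 bases before the start in Il1a, 31 in Il1b and 29 in window 2 of Il33. It was present in 4 of the 14 windows of the 9 members, which belong to 3 genes, against 8.32% of 32851 promoters. In Il1a the ETS/PU.1 match overlapped the C/EBP match, and an AP-1 match lay 12 to 6 bases before the start. C/EBP matches were found in 10 of the 14 windows (40.7% of all promoters), GAGGAA in 3 (28.3%), TGANTCA in 2 (7.81%) and the NF-kappa-B consensus in 1 (4.51%), a window of Il1r1. The windows of Il1r2, Il18 and Il1rap held 0 matches to these letters. That of Il1r2 lies inside the gene as annotated, which starts at 40074079, so the annotated start was not searched. Some windows of one gene overlap each other, and a match is a description of letters.

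Il33 encodes interleukin-33, held in the nuclei of stromal and endothelial cells, with its gene on the forward strand of chromosome 19 at 29925114 to 29960718. Its level was 8.11, 4.75 and 8.63 CPM in sham hearts 1 to 3, 17.5, 5.64 and 14.2 CPM in MIRI hearts 1 to 3, and 20.4, 9.26 and 14.8 CPM in GXNI hearts 1 to 3. Of the 6 hearts after ischemia, 5 lay above the sham range, and GXNI 1, which was sham-like in Il1b, had the highest level of all 9. The log2 fold change after ischemia was 0.93 (SE 0.38, 95% interval 0.08 to 1.78, adjusted p = 0.145, edgeR's quasi-likelihood test).

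Il33 differed from Il1b only in GXNI 1 as to which hearts lay above the sham range. For both genes MIRI 1, MIRI 3, GXNI 2 and GXNI 3 were above it and MIRI 2 within it. All 3 GXNI hearts were above all 3 sham hearts for Il33, a separation found upward in 13.8% of genes in that comparison, with a log2 fold change of 1.06 (SE 0.35, adjusted p = 0.223, edgeR's quasi-likelihood test). GXNI 1 also had the highest summed level of 10 fibroblast markers (3293 CPM, against 2326 to 2489 CPM in sham) and of 10 mesothelial markers (123 CPM, against 17.2 to 34.8 CPM in sham). Its summed level of 10 endothelial markers was 995 CPM, within the sham range of 955 to 1239 CPM. In GXNI 2 and GXNI 3 the fibroblast sum was 1487 and 1283 CPM, below sham. The mesothelial sum was 50.8 and 90.7 CPM, above sham, with 4 mesothelial markers at 0 in GXNI 3. Aldh1a2 alone made up 24.8, 29.2 and 79.4 CPM of the mesothelial sum in GXNI hearts 1 to 3, against 4.51 to 8.63 CPM in sham. The mesothelial sums of GXNI 2 and GXNI 3 thus rested largely on this 1 gene. The part of these cell types in the Il33 level was not tested.

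Il18 encodes interleukin-18, whose precursor is cut by caspase-1, and overlaps Bco2 and Tex12 on the opposite strand of chromosome 9 (50554827 to 50581840). It had 4, 7 and 14 counts in sham, 33, 4 and 38 counts in MIRI hearts 1 to 3 and 14, 17 and 47 counts in GXNI hearts 1 to 3. The groups overlapped, and the log2 fold change after ischemia was 1.54 (SE 0.70, 95% interval -0.03 to 3.12, adjusted p = 0.175, edgeR's quasi-likelihood test).

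Il1rn, the antagonist gene, lies on the forward strand of chromosome 2 at 24336853 to 24351494, far from the pair of agonists. It was counted at 1.40, 0.446 and 1.49 CPM in sham hearts 1 to 3, at 56.0, 0.594 and 30.3 CPM in MIRI hearts 1 to 3, and at 0.749, 26.4 and 64.0 CPM in GXNI hearts 1 to 3. The 6 hearts after ischemia fell into 4 at 26.4 CPM or more and 2, MIRI 2 and GXNI 1, below 1 CPM. The log2 fold change against sham was 4.74 (SE 1.52, 95% interval 1.36 to 8.12, adjusted p = 0.101, edgeR's quasi-likelihood test), the largest of the 9 members, and adjusted p ranged from 0.00545 to 0.287 over the alternatives.

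Per kilobase of exon, the ratio of Il1rn to Il1b was 0.309, 0.207 and 0.164 in sham hearts 1 to 3. It was 0.603, 0.246 and 0.339 in MIRI hearts 1 to 3 and 0.235, 0.795 and 0.590 in GXNI hearts 1 to 3. In every heart the antagonist was thus below the agonist on this scale. The 4 hearts with high Il1b had ratios above the sham range, and those of MIRI 2 and GXNI 1 lay within it. Exon length here is the union of all isoforms, 5535 bases for Il1rn and 1907 for Il1b, which lowers the per-kilobase level of a gene with long isoforms. In undivided CPM, Il1rn exceeded Il1b in MIRI 1 (56.0 against 32.0), GXNI 2 (26.4 against 11.4) and GXNI 3 (64.0 against 37.4). It was below Il1b in all other hearts, narrowly so in MIRI 3 (30.3 against 30.8 CPM).

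Among the receptor genes, Il1r1, the signalling receptor for both interleukin-1 forms, was the most abundant member per kilobase in sham hearts. Its level was 30.8, 16.0 and 21.6 CPM in sham hearts 1 to 3, 40.8, 23.0 and 50.0 CPM in MIRI hearts 1 to 3, and 34.6, 25.0 and 49.1 CPM in GXNI hearts 1 to 3. The groups overlapped, with MIRI 2 and GXNI 2 inside the sham range, and the log2 fold change after ischemia was 0.70 (SE 0.30, 95% interval 0.03 to 1.38, adjusted p = 0.155, edgeR's quasi-likelihood test). Il1rap, the accessory chain that Il1r1 shares with Il1rl1, varied little among sham hearts (5.58, 4.95 and 4.90 CPM). It was at 17.4, 3.74 and 15.8 CPM in MIRI hearts 1 to 3 and at 5.14, 8.97 and 19.2 CPM in GXNI hearts 1 to 3, so that MIRI 2 was below all sham hearts, GXNI 1 within them and the other 4 above. Its log2 fold change after ischemia was 1.19 (SE 0.51, 95% interval 0.05 to 2.32, adjusted p = 0.156, edgeR's quasi-likelihood test).

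Il1r2, the decoy receptor, had the widest range in CPM of the 9 members. It was counted at 3.60, 0.545 and 2.13 CPM in sham hearts 1 to 3, at 73.3, 1.07 and 99.1 CPM in MIRI hearts 1 to 3, and at 1.80, 21.4 and 106 CPM in GXNI hearts 1 to 3. The same 4 hearts as for Il1rn were high and MIRI 2 and GXNI 1 were within the sham range. The log2 fold change after ischemia was 4.60 (SE 1.54, 95% interval 1.15 to 8.05, adjusted p = 0.107, edgeR's quasi-likelihood test), with adjusted p from 0.00883 to 0.289 over the alternatives.

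Per kilobase of exon, the ratio of decoy to signalling receptor (Il1r2 to Il1r1) was below 1 in all 3 sham hearts, at 0.390, 0.114 and 0.329. It was 6.0, 0.155 and 6.61 in MIRI hearts 1 to 3 and 0.173, 2.86 and 7.22 in GXNI hearts 1 to 3. On this scale the decoy transcript thus exceeded that of the signalling receptor in 4 of the 6 hearts after ischemia and in 0 of the 3 sham hearts. The union exon lengths were 1908 bases for Il1r2 and 6363 for Il1r1. In CPM without this division, Il1r2 was below Il1r1 in GXNI 2 (21.4 against 25.0 CPM). In the order of mean levels per kilobase, sham hearts ran from Il1r1 (3.58) and Il33 (2.48) through Il1r2 (1.10), Il1b (0.951), Il1rap (0.453), Il18 (0.423), Il1rl1 (0.211) and Il1rn (0.201) to Il1a (0.0348). Neighbours in this order overlapped in range except Il1rn and Il1a. After ischemia the order began with Il1r2 (26.5), Il1b (9.92), Il1r1 (5.83) and Il1rn (5.36) and ended with Il1rl1 (0.210), and the ranges of all neighbours overlapped.

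**Figure D2:**
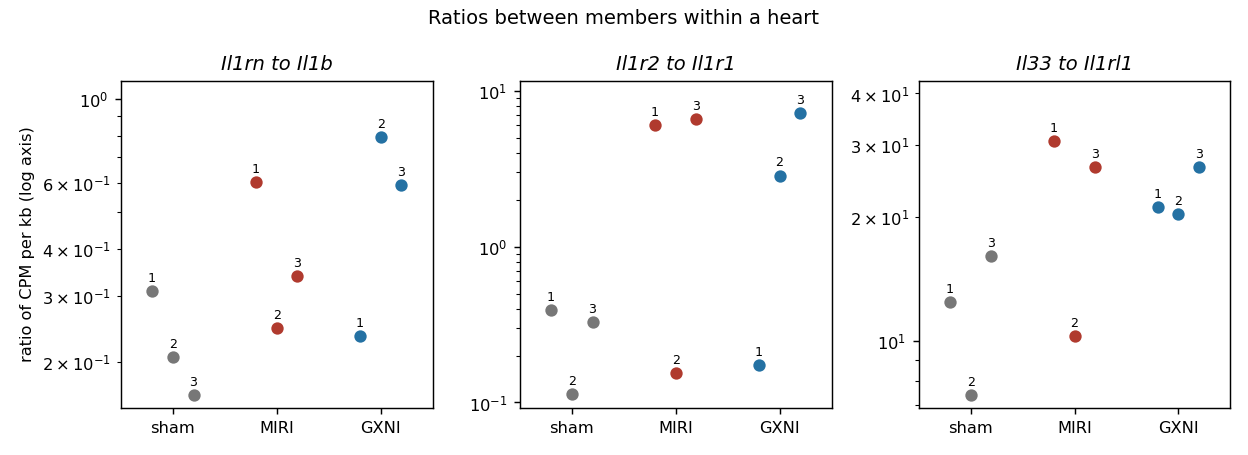
Ratio of 2 members within each heart, from CPM per kilobase of exon, on log vertical axes that differ between panels. Points are single libraries marked with their replicate number. Il1r2 exceeded Il1r1 in MIRI 1, MIRI 3, GXNI 2 and GXNI 3, at 2.86 to 7.22, and was below it in all other hearts.

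Il1rl1, which encodes ST2, the interleukin-33 receptor, in a membrane and a soluble form that gene counts do not separate, had a log2 fold change near 0. Its level was 1.56, 1.54 and 1.28 CPM in sham hearts 1 to 3, 1.36, 1.31 and 1.29 CPM in MIRI hearts 1 to 3, and 2.30, 1.08 and 1.33 CPM in GXNI hearts 1 to 3. With 22 to 46 counts per heart, the difference after ischemia was -0.01 (SE 0.27, 95% interval -0.63 to 0.60, adjusted p = 0.979, edgeR's quasi-likelihood test), an interval that includes changes of up to 0.60 in either direction. GXNI 1 alone stood above the sham range, and it was also the highest heart for Il33. The ratio of Il33 to Il1rl1 per kilobase was 7.40 to 16.1 in sham hearts, 30.7, 10.3 and 26.4 in MIRI hearts 1 to 3, and 21.2, 20.4 and 26.5 in GXNI hearts 1 to 3.

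**Figure D3:**
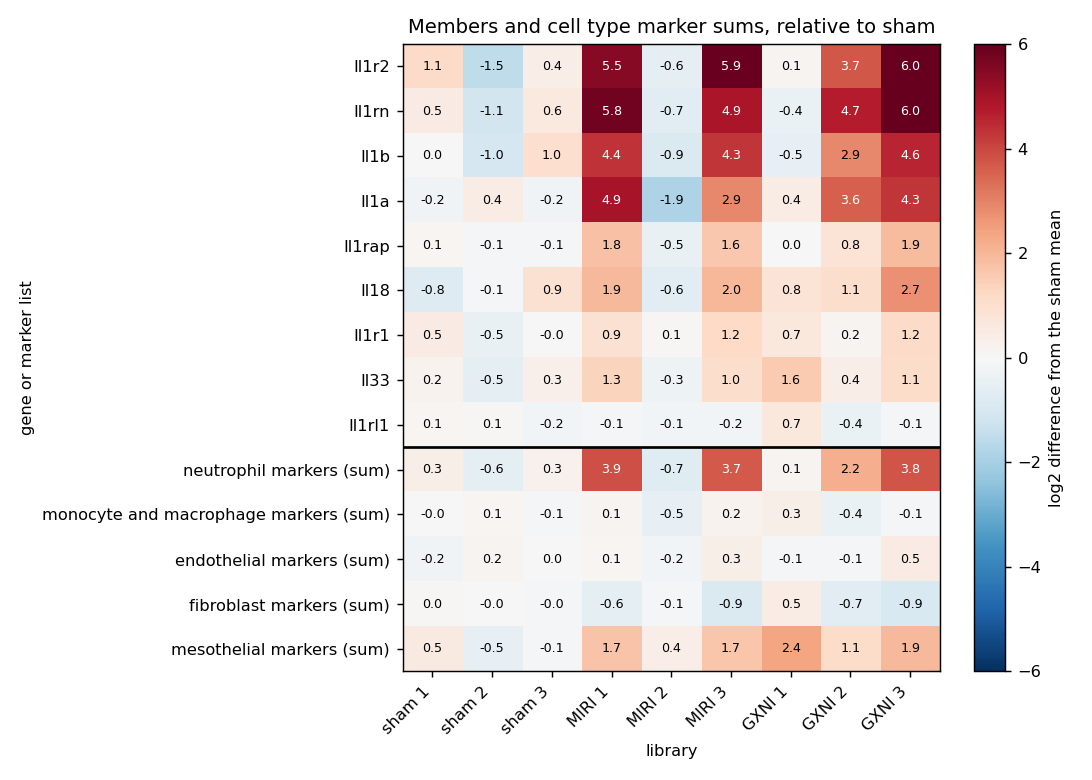
Log2 difference of each library (columns) from the sham mean for the 9 members (upper rows) and for summed cell type markers (lower rows). Red is higher and blue lower. MIRI 1, MIRI 3 and GXNI 3 were highest for Il1r2, Il1rn, Il1b and the neutrophil markers, while GXNI 1 was highest for Il33, Il1rl1 and the mesothelial and fibroblast markers.

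The receptor genes form a cluster on the forward strand of chromosome 1, in which Il1r2 (40074079 to 40125231), Il1r1 (40225080 to 40317257) and Il1rl1 (40429570 to 40465415) stand with Il1rl2, the interleukin-36 receptor gene, and with Il18r1 and Il18rap, which encode both chains of the interleukin-18 receptor. These 3 neighbours were named for their position after their values had been seen. Along the cluster the log2 fold change after ischemia was 4.60 for Il1r2, 0.70 for Il1r1, 0.92 (SE 0.33) for Il1rl2, -0.01 for Il1rl1, 0.20 (SE 0.51) for Il18r1 and 3.52 (SE 1.26) for Il18rap. The 2 genes at its ends thus had the larger values, and the 4 between them were within 1 log2 unit of 0. Il18rap was at 1.88, 0.545 and 1.01 CPM in sham hearts 1 to 3, at 21.2, 0.475 and 22.9 CPM in MIRI hearts 1 to 3, and at 1.35, 4.73 and 28.3 CPM in GXNI hearts 1 to 3. None of the 6 genes was called with all libraries in edgeR's quasi-likelihood test, and at an unadjusted p under 0.05 there were 4 (Il1r2, Il1r1, Il1rl2 and Il18rap), against 29.5% of all genes. Without MIRI 2, Il1r2 (4.85), Il1rl2 (1.03) and Il18rap (3.77) were called, against 9.67% of genes called higher. MIRI 2 was the lowest of the 6 hearts for each of them, so leaving it out raises these values by itself. Il1r2 overlaps Gm16894 on the opposite strand and Gm37347 on its own, and Il1r1 overlaps Gm38070.

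**Figure D4:**
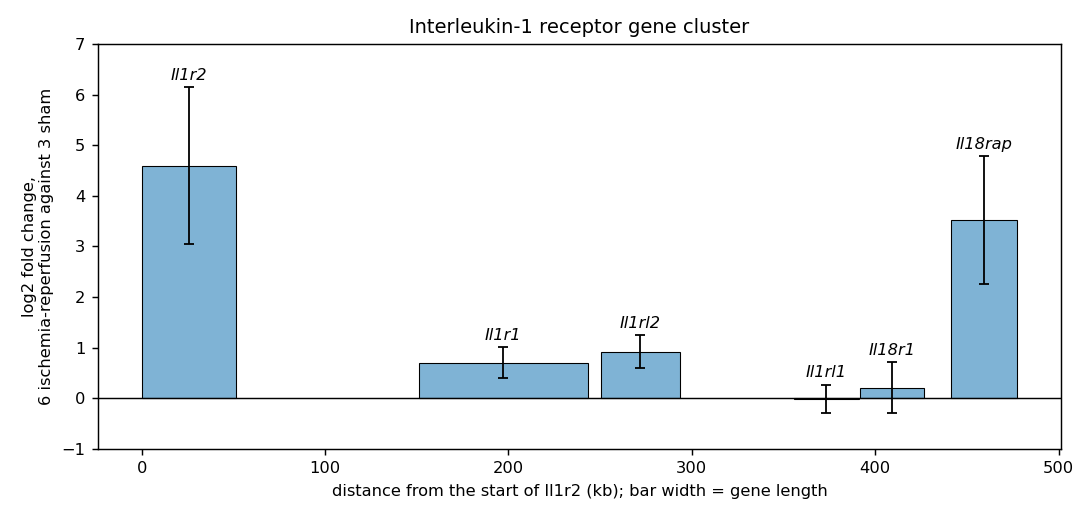
Log2 fold change of the 6 receptor genes in 6 hearts after ischemia and reperfusion against 3 sham hearts (vertical axis, bars with standard errors), placed by distance from the start of Il1r2 in kilobases, each bar as wide as its gene. Il1r2 and Il18rap at the ends had values of 4.60 and 3.52, and the genes between them lay between -0.01 and 0.92.

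The 4 members with the largest values were high in the same 4 hearts as the neutrophil marker sum, which was 31.0 and 57.6 CPM in MIRI 2 and GXNI 1 and 238 to 756 CPM in the other 4 hearts after ischemia. All 14 neutrophil markers were in the table, and Camp was at 0 in 4 libraries, Ltf in 3 and Ngp in 1. Among 15206 other genes, those most like Il1b across the 9 libraries were Mcemp1 (Pearson r = 0.995 of log2 CPM), Cnr2 (0.991) and Pde1b (0.990), and those most like Il1r2 were Gpr35 (0.996), Cd300lf (0.995) and Clec4d (0.993), of which Clec4d is one of the neutrophil markers. Plxna3 (0.974), Fbrs (0.954) and Setd4 (0.945) were most like Il33, and Etohd2 (0.946), Ildr2 (0.945) and Enpep (0.934) most like Il1rl1. These values describe 9 libraries that share groups and were picked as the highest of many. The summed level of 14 monocyte and macrophage markers was 542 to 951 CPM after ischemia and 717 to 817 CPM in sham hearts. This sum was led by Lyz2 and hides differences between its genes, of which 0 were called. Mean levels after ischemia were higher than in sham for Ly6c2 (20.9 against 3.51 CPM) and Fcgr1 (26.0 against 11.5 CPM). They were lower for C1qa (81.6 against 102.8 CPM) and Mrc1 (45.6 against 50.9 CPM). The part of neutrophil or monocyte number in the Il1b, Il1rn, Il1r2 and Il1a levels was not tested.

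MIRI against sham was led by Il1r2 and Il1rn, with Il1rl1 nearest to 0. With all libraries 0 of the 8 members tested were called, where 8.97% of 14644 genes were, with 4 members at an unadjusted p under 0.05 (28.3% of genes) and 4 called by DESeq2 (8.07% of its genes). The log2 fold changes were 4.80 for Il1r2 (SE 1.42), 4.72 for Il1rn (SE 1.35), 3.56 for Il1b (SE 1.17), 1.41 for Il18, 1.27 for Il1rap, 0.81 for Il33, 0.74 for Il1r1 and -0.14 for Il1rl1. Their median was 1.34, beside 0.00 over all genes. Il1a, which did not pass the filter, had 3.95 (SE 1.16) in the fit without the filter and was among the 4 called by DESeq2. Adjusted p was 0.103 for Il1rn, the smallest, in edgeR's quasi-likelihood test. MIRI 2 decided these results. Without it, with 2 MIRI hearts against 3, 8 of the 9 members were called, all higher and all but Il1rl1, against 16.9% of 15207 genes called higher and 30.2% called in either direction. Their log2 fold changes were then 5.38 for Il1r2, 5.29 for Il1rn, 4.51 for Il1a, 4.12 for Il1b, 1.86 for Il18, 1.69 for Il1rap, 1.15 for Il33 and 1.0 for Il1r1, with adjusted p between 0.000215 and 0.0189 in edgeR's quasi-likelihood test. Il1rl1 stayed at -0.14 (adjusted p = 0.741, edgeR's quasi-likelihood test). MIRI 2 stood out by its measured values and was the lowest MIRI heart for each of the 8. Leaving it out therefore raises these values and narrows their spread by itself. Without MIRI 1 or without MIRI 3, 0 members were called.

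GXNI against MIRI, the comparison that bears on the treatment, gave 0 of 9 members called in edgeR's quasi-likelihood test, where 0.0203% of 14762 genes (3 genes) were, with 0 members at an unadjusted p under 0.05 and 0 called by DESeq2 (0.0391% of its genes). The log2 fold changes were -0.41 for Il1r2 (95% interval -4.17 to 3.35), -0.34 for Il1b (-3.61 to 2.92), -0.23 for Il1a (-3.42 to 2.96), -0.15 for Il1rap (-1.74 to 1.45), -0.06 for Il1r1 (-0.90 to 0.79), 0.07 for Il1rn (-3.64 to 3.78), 0.26 for Il33 (-0.85 to 1.37), 0.27 for Il1rl1 (-0.64 to 1.18) and 0.30 for Il18 (-1.61 to 2.22). The intervals of Il1r2, Il1rn, Il1b and Il1a include changes of more than 2 log2 units in either direction, so these hearts do not exclude a difference of that size. The direction of all 9 turned when one library or another was left out.

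Leaving out both MIRI 2 and GXNI 3 left GXNI 1 and 2 against MIRI 1 and 3. For all members but Il33 and Il1rl1 this removed the lowest MIRI heart and the highest GXNI heart, which by itself lowers GXNI against MIRI. Il1rap is among these members. The log2 fold changes were then -2.88 for Il1r2, -2.31 for Il1b, -1.66 for Il1rn, -1.52 for Il1a, -1.22 for Il1rap, -1.03 for Il18, -0.59 for Il1r1, -0.09 for Il33 and 0.37 for Il1rl1. Il1rap alone was called, with an adjusted p of 0.189 in edgeR's quasi-likelihood test, where 3.47% of 14984 genes were called lower. The choice of these 2 libraries was made from their measured values, so the comparison without them is a description of the 4 remaining hearts.

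**Figure D5:**
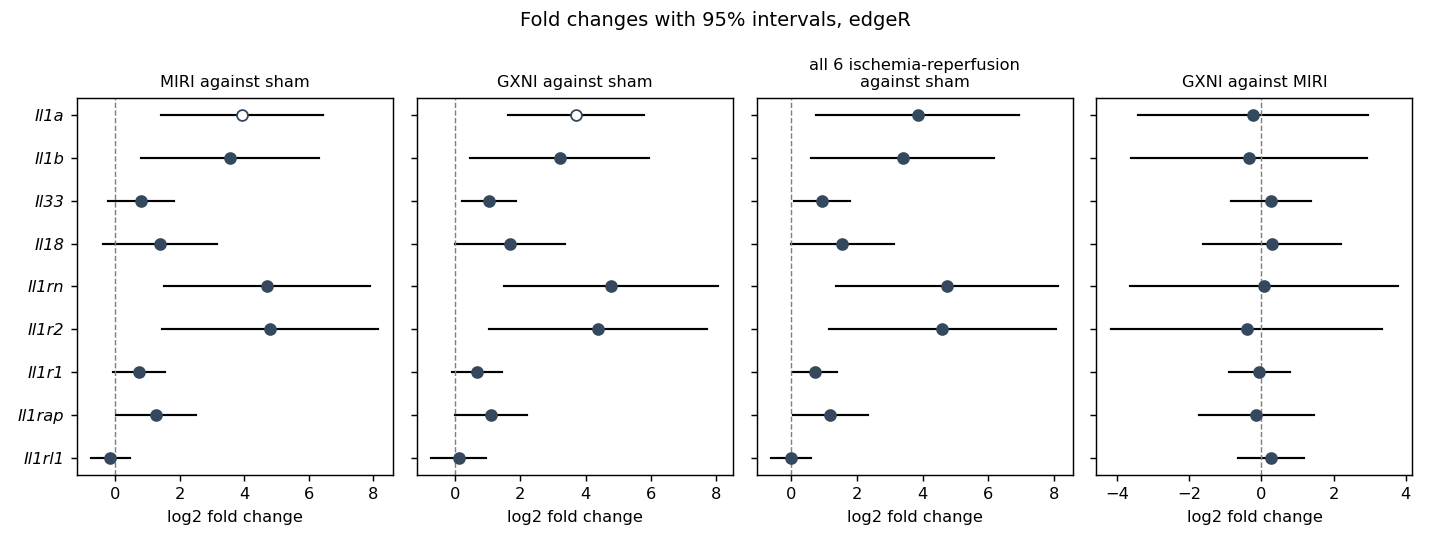
Log2 fold change of each member with its 95% interval (horizontal axis) in 4 comparisons, from edgeR with all libraries. Open circles mark Il1a where its low counts did not pass the filter. Il1rn, Il1r2, Il1b and Il1a were above 0 in each comparison with sham, and all intervals of GXNI against MIRI included 0.

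GXNI against sham shares its sham hearts with the MIRI comparison. Of 8 members tested 0 were called in edgeR's quasi-likelihood test (4.21% of 14695 genes), 6 were at an unadjusted p under 0.05 (19.8% of genes), and DESeq2 called 4, which were Il1a, Il33, Il1rn and Il1r2 (5.01% of its genes). The log2 fold changes were 4.79 for Il1rn, 4.38 for Il1r2, 3.21 for Il1b, 1.69 for Il18, 1.12 for Il1rap, 1.06 for Il33, 0.68 for Il1r1 and 0.12 for Il1rl1, with a median of 1.41 beside 0.01 over all genes. Il1a, which did not pass the filter, had 3.71 (SE 0.95) in the fit without the filter. GXNI 1 decided part of this. Without it, 5 of the members were called, against 10.7% of 14990 genes called higher. These were Il1rn (5.36), Il1r2 (4.95), Il1a (4.26), Il1b (3.77 on the log2 scale) and Il1rap (1.46), while Il33 had 0.76 and Il1rl1 -0.26. GXNI 1 was the lowest GXNI heart for each of the 5 called, so leaving it out raises their values by itself. Without GXNI 3, 0 members were called and the log2 fold changes were lower for Il1rn (3.62), Il1r2 (2.49), Il1b (1.80), Il18 (0.82), Il1rap (0.46) and Il1r1 (0.39), while Il33 had 1.05. Without GXNI 2, the lowest GXNI heart for Il33, Il33 alone was called (1.31), with an adjusted p of 0.356 in edgeR's quasi-likelihood test.

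The wider pathway was read from 4 lists. Of 12 other interleukin-1 family genes, 6 passed the filter in the 6 hearts after ischemia against sham and 0 were called in edgeR's quasi-likelihood test (8.38% of all genes), with 3 at an unadjusted p under 0.05 (29.5% of all genes). Their median log2 fold change was 0.56. Il1f10, Il1f6, Il1f8, Il1f5 and Il1rapl2 had 0 counts in all libraries. Il1f9, which encodes interleukin-36 gamma and is described after its values had been seen, was at 0.347 to 0.480 CPM in sham hearts, at 7.30, 0.119 and 9.99 CPM in MIRI hearts 1 to 3 and at 0.450, 5.81 and 14.1 CPM in GXNI hearts 1 to 3. Its log2 fold change was 3.89 (SE 1.28, adjusted p = 0.104, edgeR's quasi-likelihood test), with the same 4 hearts high as for Il1b. Il18bp, which encodes the soluble binding protein of interleukin-18, was at 11.9 CPM after ischemia and 12.0 CPM in sham (log2 fold change -0.01, SE 0.29).

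Of 18 genes of receptor-proximal signalling, all tested, 1 rose and 0 fell after ischemia, where 5.52% of all genes were called higher, with a median log2 fold change of 0.21. The one that rose was Irak2, a kinase-like adaptor of the interleukin-1 receptor complex. It was at 10.6, 8.81 and 6.98 CPM in sham hearts 1 to 3, at 26.9, 11.7 and 26.2 CPM in MIRI hearts 1 to 3 and at 19.4, 16.5 and 28.5 CPM in GXNI hearts 1 to 3. All 6 hearts after ischemia, MIRI 2 and GXNI 1 among them, were above every sham heart, as in 8.4% of all genes, with a log2 fold change of 1.29 (SE 0.29, adjusted p = 0.0852, edgeR's quasi-likelihood test). It was called under every alternative except an adjusted p of at most 0.05, with values of 1.15 to 1.44. Myd88 (0.78, SE 0.32) and Traf6 (0.56, SE 0.27) were not called. Of 11 genes of cytokine processing, 8 were tested and 0 called, with a median of 0.38. The largest value was that of Nlrp3, the inflammasome sensor (2.62, SE 1.06), while Casp1, whose product cuts interleukin-1 beta and interleukin-18, had -0.26 (SE 0.31).

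Of 16 genes known to be induced by interleukin-1, 5 rose after ischemia (Il6, Cxcl1, Cxcl2, Ptgs2 and Sele) and 0 fell, where 5.52% of all genes were called higher. Their median log2 fold change was 2.63, or 2.28 with Csf2, which had 0 counts in sham hearts, set to a bound of 3 counts per library. Ptgs2 encodes cyclooxygenase-2, Cxcl2 a neutrophil-attracting chemokine and Sele an endothelial selectin. Cxcl2 had a log2 fold change of 6.19 (SE 1.80, adjusted p = 0.0905, edgeR's quasi-likelihood test), Ptgs2 of 5.18 (SE 1.47, adjusted p = 0.0896) and Sele of 3.27 (SE 0.87, adjusted p = 0.0875). Sele was at 0.967, 0.990 and 1.60 CPM in sham hearts 1 to 3, and at 2.35 CPM or more in every heart after ischemia, so that its groups did not overlap, as in 8.4% of all genes. Without any one sham heart, the calls of these 3 genes were lost at log2 fold changes of 3.15 or more. That of Ptgs2 was also lost without MIRI 3 (4.97), and that of Cxcl2 without MIRI 1 (6.03), MIRI 3 (5.90) or GXNI 3 (5.84). The neutrophil marker sum moved with these genes, and its part was not tested. In GXNI against MIRI, 0 of the 16 were called, with a median of -0.04.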

How the data were processed

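RNA of heart tissue was sequenced in 3 sham, 3 MIRI and 3 GXNI mice. Reads with adapter, unknown bases or low quality were discarded by the authors, who aligned the rest with HISAT2 and counted genes with featureCounts. The deposited counts are whole numbers per gene without normalization. The submitters' processing notes name HISAT2, featureCounts, Subread, DESeq2 and the build mm10, while versions, annotation release and strand setting are not given in the sources used here. Of 54532 gene identifiers, 54409 matched GENCODE M21 (GRCm38) and 123 did not. There were 0 columns of other samples. Symbols of the interleukin-36 genes were matched through RefSeq synonyms, and promoter sequences are those of RefSeq (GRCm38.p6).

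Counts were fitted with edgeR 4.0.16 in R 4.3.3 (filterByExpr, TMM, quasi-likelihood F test, no covariates), on the 6 libraries of a comparison or on all 9 for ischemia and reperfusion against sham. Adjusted p values are Benjamini-Hochberg values over all genes tested. Each p value sets a difference between groups against the spread between mice, with 3 mice per group or 6 against 3 sham. Where Il1a did not pass the filter, its value is from the unfiltered fit. The alternatives were DESeq2 1.42.0, no filter, RLE factors, omission of mitochondrial genes, other groups in the fit, the replicate number as a block, an adjusted p of at most 0.05, each library left out, and MIRI 2 and GXNI 3 both left out. The scripts were tested on simulated data. Log2 CPM used a prior count of 0.5. No pair of libraries was alike within sampling noise.

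The members, gene lists, marker lists and alternatives were chosen with earlier results of these data known, and so is the choice of libraries that stand apart. The text names all 9 members, up to 3 called genes of each other list with the smallest p, and for 4 members the 3 genes of highest Pearson r. Other genes were named after their values were seen or as background. Markers of mast cells and ILC2, atrial cells and adipocytes were summed too. Their ranges were 33.2 to 82.4, 67.8 to 746 and 417 to 659 CPM, led by Rora, Nppa and Fabp4. Cardiomyocyte markers summed to 32800 to 51670 CPM and endothelial markers to 955 to 1557 CPM.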

Additional observations from a re-analysis of the deposited data

Results flagged for a closer look

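The Il1rl1 level of GXNI 1 lay far from the other 5 hearts after ischemia and reperfusion. Its log2 CPM was 1.22, and the gap to the nearest other heart was 0.701 of the whole range of the 6, above Dixon's critical value for 6 values. A gap above that critical value arises by chance in about 1 of 20 groups, and the level rests on 46 counts. The same heart had the highest Il33 level and the highest mesothelial and fibroblast marker sums, whose part was not tested.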

How the results depend on the processing

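The comparisons with sham rest on few hearts per group, and MIRI 2 and GXNI 1 set the spread within their groups. RLE normalization and leaving out mitochondrial genes moved no count of calls by over 1.5 times. In each comparison with sham the log2 fold changes of Il1a, Il1b, Il33, Il18, Il1rn, Il1r1, Il1rap and Il1r2 stayed above 0 under every alternative run, and those of Il1rl1 did not. The cause of the changes given here was not tested. Il1a and Il18 are further limited by depth, with 0 to 60 and 4 to 47 counts per library.

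In MIRI against sham, 900 genes were higher and 413 lower. DESeq2 gave 1491 and 760, no filter 1603 and 803, all 9 libraries in 1 fit 535 and 265, and an adjusted p of at most 0.05 gave 2 and 0. Leaving out single libraries gave 340 to 2571 higher, 174 to 2021 lower and 0 to 8 members. DESeq2 called 4 members and no filter 5. GXNI against sham gave 392 higher and 226 lower, against 994 and 407 with DESeq2, 999 and 426 without the filter, 142 lower with all 9 libraries and 0 and 0 at an adjusted p of at most 0.05. Single libraries left out gave 83 to 1603 higher, 90 to 1062 lower and 0 to 5 members, DESeq2 called 4 members and no filter 5. For all hearts after ischemia against sham, 840 were higher and 434 lower. DESeq2 gave 1519 and 677, no filter 656 lower, and an adjusted p of at most 0.05 gave 4 and 5. Single libraries left out gave 254 to 1466 higher, 209 to 858 lower and 0 to 6 members. DESeq2 and no filter each called 4 members, as did the fit without MIRI 2 and GXNI 3, where Il1rl1 turned to 0.049.

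GXNI against MIRI gave 0 higher and 3 lower, DESeq2 4 and 7, no filter 4 and 6, all 9 libraries 1 and 8, an adjusted p of at most 0.05 0 lower, and leaving out MIRI 2 and GXNI 3 228 and 520 with 1 member. In that last fit Il18 turned to -1.03, Il1rn to -1.66 and Il33 to -0.085. Single libraries left out gave 0 to 8 higher and 0 to 9 lower. The member values then ranged from -0.96 to 1.54 for Il1a, -1.75 to 0.21 for Il1b, -0.087 to 0.59 for Il33, -0.57 to 0.64 for Il18, -1.09 to 0.99 for Il1rn, -0.34 to 0.18 for Il1r1, -0.80 to 0.19 for Il1rap, -0.12 to 0.47 for Il1rl1 and -2.31 to 0.21 for Il1r2. In the comparisons with sham, Il1rl1 ranged from -0.26 to 0.33 (GXNI) and -0.19 to 0.058 (all hearts), and Il18r1 from -0.13 to 0.51.

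Same-numbered libraries came from different mice and their deviations from the group means correlated at -0.44 to 0.70, so the numbers were not taken as pairs. Of 6 libraries in each pair of groups, 2 to 4 correlated best with their own number. With the replicate number as a block, 2 members were called in each comparison with sham (Il1rn and Il1r2 for MIRI, Il33 and Il18 for GXNI, Il33 and Il1r1 for all hearts), Cxcl2 (5.71) was no longer called, and Irak2, Ptgs2 and Sele remained called, while GXNI against MIRI gave 2 genes higher and 1 lower and Il1a turned to 0.50.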
